A study of Rattus norvegicus with 8 samples.

Results

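DEAD and DEAH box proteins are a family of RNA-dependent ATPases named after short conserved stretches of amino acids in their helicase core, and their genes carry symbols that begin with Ddx or Dhx. The members described here were chosen by symbol alone, as all probe sets whose gene symbol in the array annotation, or current symbol by gene identifier, starts with Ddx or Dhx and a digit. This gave 60 probe sets for 51 genes, of 26208 probe sets for 24154 genes on the array. The family itself was selected from earlier thioacetamide differences on these same arrays, so the counts and p-values below describe its members and support nothing further.

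Liver RNA came from 8 male F344/N rats on NimbleGen 1-colour arrays. Of these, 4 had received thioacetamide, a liver toxicant that becomes reactive once liver enzymes have oxidised it, for 28 days, and 4 were untreated controls on basal diet and tap water. Gavage is labelled for both groups, although the protocol describes controls as left without treatment, and neither dose nor age is stated in the labels. The design text counts animals, so the replicate spread is between rats, and all values are log2 levels on the scale of the deposited data.

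These enzymes use ATP to separate short RNA helices or to strip proteins off RNA. Many of them work in the nucleolus, where ribosomal RNA is transcribed, cut and folded into ribosome precursors, and others drive the rearrangements of the spliceosome, release mRNA at the nuclear pore, start or stop translation, or sense viral RNA in the cytoplasm. In liver, ribosome assembly is known to rise when hepatocytes re-enter growth, while the RNA sensors are interferon-stimulated genes present in hepatocytes and in immune cells alike.

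Short promoter sequences are shown first for members that hold an E-box, the letters CACGTG, because this is the textbook site of the growth regulator Myc and other basic helix-loop-helix factors. Promoters from RefSeq on the GRCr8 assembly, spanning 250 bases before to 50 after the gene start, were found for 43 of the 51 members; Ddx3, Ddx6, Ddx24, Ddx52, Ddx58, Dhx58, Ddx21-ps9 and Ddx21-ps11 were not in that table. The E-box reads the same on both strands, and it was present in 7 of the 43 promoters (16.3%), against 1826 of 27457 in the whole table (6.65%). The share was 2 of 12 among nucleolar members and 2 of 16 (12.5%) among the members called higher in treated liver. The 76 bases around the E-box are printed 5′ to 3′ on the strand of the gene, with the E-box in capitals, for both nucleolar members that hold it and for a mitochondrial and a spliceosomal member that were not called.
Ddx18 (chr13:35295945-35296020, minus strand): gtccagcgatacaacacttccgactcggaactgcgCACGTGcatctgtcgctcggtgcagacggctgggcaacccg
Dhx33 (chr10:56223137-56223212, minus strand): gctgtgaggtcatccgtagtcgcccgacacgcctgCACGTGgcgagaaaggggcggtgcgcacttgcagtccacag
Ddx28 (chr19:50821616-50821691, minus strand): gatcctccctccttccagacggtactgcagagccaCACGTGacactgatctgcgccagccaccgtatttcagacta
Dhx35 (chr3:167869893-167869968, plus strand): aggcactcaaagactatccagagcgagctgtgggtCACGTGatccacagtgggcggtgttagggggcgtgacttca
Counted from the annotated start, the first base of the E-box lay at −13 in Ddx18, −34 in Dhx33, −83 in Ddx28 and −130 in this copy of Dhx35. Dhx35 held another copy at −181, and the other promoters with an E-box were those of Ddx4, Ddx25 and Dhx40. The median GC content of the members' promoters was 57.7%, against 52.3% in the whole table. A core of the interferon-stimulated response element, the letters GAAA and again GAAA with NN between them, was searched on both strands. It was in 0 of the 43 windows, which did not include those of the RNA sensors Ddx58 and Dhx58, against 3.77% of all promoters. These matches describe letters in a window and no binding was measured.

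Background was set on each array by 1276 probe sets for olfactory receptors, genes that liver is known to lack, at their 95th percentile. It lay between 6.95 and 7.91 in controls and between 6.54 and 6.94 in treated rats. In a principal component analysis the groups lay apart on component 1 (51.7% of variance). On the second component (19.8%), control replicate 3 and thioacetamide replicate 4 stood apart from the rest of their groups, and counts without them are given below. In bulk liver, fewer cells of a type and less RNA per cell cannot be told apart. Hepatocyte markers showed no call in either direction in limma's test (0 of 7, and also 0 at an unadjusted p under 0.05), with log2 differences from −0.35 to 0.18. Of these markers 6 had group means between 15.3 and 15.7, close to the highest value of any array (15.98), which limits what their differences show, and Hnf4a (−0.35), at 12.9 in controls, was the only one well below it. Of the other liver cell markers, 2 of 5 for stellate cells and 1 of 5 for bile duct were called higher (40% and 20%, beside 9.67% of all genes). For endothelium 0 of 4 and for B cells 0 of 3 were called (2 and 1 lower at an unadjusted p under 0.05).

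Among the helicase genes that passed the test, nearly all were higher in the livers of treated rats than in those of controls, led by the export helicase Ddx39a and by nucleolar helicases. Of the 51 genes, 17 passed the test as higher (33.3%), against a background of 9.67% of all genes, and 1 passed as lower (1.96%), against 5.24%. The test was limma on the log2 values, calling an adjusted p under 0.05 (Benjamini-Hochberg, taken over the whole array), and a gene with several probe sets was represented by the one with the highest mean. By probe set, 19 of 60 were higher (background 9.46%) and 1 was lower (background 5.14%). The shares over all genes include many dim genes. With dim probe sets filtered out, 2808 of 14080 probe sets were called higher in limma, among them 23 helicase probe sets. Counted by gene, 21 of 47 members were called higher in that fit. Since the family was picked with this contrast known, nothing is read from the distance to the background.

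The median log2 difference, thioacetamide minus control, was 0.54 over the 51 genes and −0.04 over all genes, with members from −1.32 to 1.95. Of the 18 called genes, 12 differed at least 2-fold. In 25 genes all 4 treated rats lay above all 4 controls (49%, background 14.2%), and in 1 gene they all lay below (background 7.69%). At an unadjusted p under 0.05 in limma the counts were 26 higher and 3 lower, beside 4153 higher and 3078 lower of all 24154 genes. Above the background level on all 8 arrays were 34 of the 51 genes, and the values of the other 17 include readings that cannot be told from background.

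**Figure D1:**
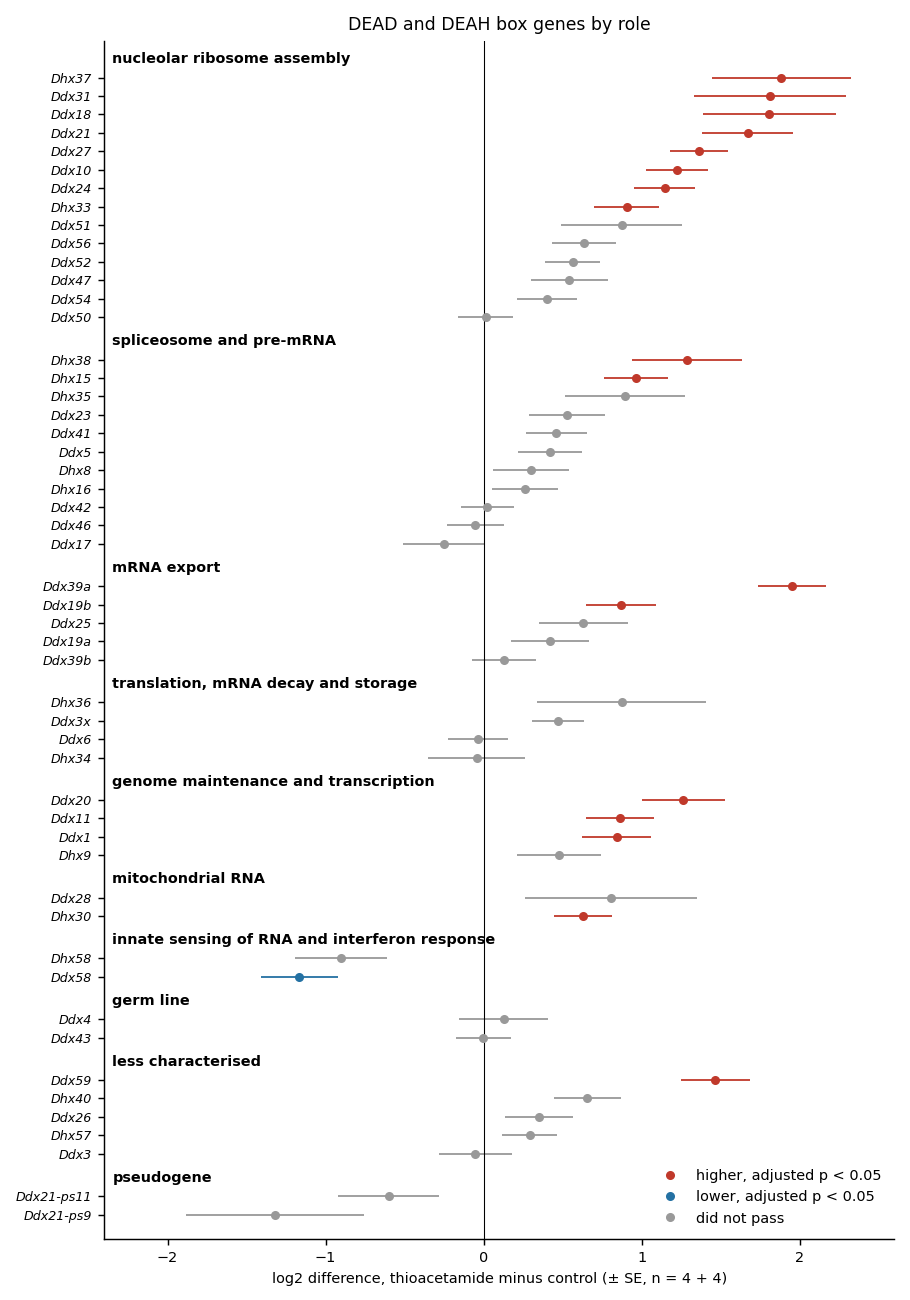
Log2 difference in level, thioacetamide minus control, of each of the 51 member genes (points) with the standard error of the fit (bars, 4 rats a group), grouped by the role of the protein. Red marks the 17 genes called higher, blue the 1 gene called lower (Ddx58) and grey the 33 that did not pass. The nucleolar group holds 8 of the red points, and both RNA sensors lie below 0.

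The 14 nucleolar members act in making ribosomes, and 8 of them were called higher in treated liver (57.1%, beside 9.67% of all genes) while 0 were lower, also at an unadjusted p under 0.05 (limma). Their median log2 difference was 1.03, all 14 differences were above 0, and in 11 of the 14 the treated rats all lay above the controls (78.6%, beside 14.2% of all genes). Ddx21, which couples transcription of ribosomal RNA to its processing, read 8.83, 8.11, 8.05 and 9.25 in control replicates 1 to 4 and 10.14, 10.50, 10.20 and 10.08 in thioacetamide replicates 1 to 4. Every treated rat lay above every control, a log2 difference of 1.67 ± 0.29 (SE) or 3.18-fold (limma adjusted p = 0.00397). Probe sets named for 2 Ddx21 pseudogenes are also on the array and are described below, so the signal of the Ddx21 probes may include closely related transcripts.

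Ddx10 and Dhx37, which have yeast counterparts in small-subunit assembly, were called. Ddx47 and Ddx52, given below, have such counterparts too and were not called. Ddx10, the counterpart of yeast Dbp4, which helps remodel the U3 snoRNA duplexes in early precursors, read 9.73, 9.17, 9.47 and 9.58 in controls and 10.83, 10.88, 10.57 and 10.55 in treated rats. The groups were separate, with a log2 difference of 1.22 ± 0.20 and an adjusted p of 0.00282 in limma. Dhx37, the counterpart of the yeast enzyme that releases U3 from the precursor, read 8.44, 7.02, 6.72 and 8.88 in controls and 9.69, 9.58, 9.54 and 9.79 in treated rats. The treated values of Dhx37 lay close together, while control replicates 2 and 3 were far below the other controls and under the background level of their arrays. Its log2 difference was 1.88 ± 0.44, or 3.69-fold (adjusted p = 0.0183).

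Called members with yeast counterparts in large-subunit assembly were Ddx18, Ddx24, Ddx27 and Ddx31. Ddx27 gave the tightest of these measurements, with 11.70, 11.98, 11.93 and 11.56 in controls and 13.17, 13.05, 13.11 and 13.30 in treated rats. That is a log2 difference of 1.36 ± 0.18 (adjusted p = 0.00105), and its other probe set gave 1.46 ± 0.20 (adjusted p = 0.00133). Ddx27 was the 1 gene in the family with more than 1 probe set whose probe sets were all called.

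Ddx24 read 10.86, 10.52, 10.59 and 10.95 in controls and 11.76, 11.94, 12.09 and 11.71 in treated rats, a log2 difference of 1.15 ± 0.19 (adjusted p = 0.00343). Ddx18, the counterpart of yeast Has1, read 9.46, 9.11, 7.29 and 9.22 in controls and 10.44, 10.74, 10.42 and 10.71 in treated rats. Control replicate 3 was far below the other controls of Ddx18, and the log2 difference of 1.81 ± 0.42 has a correspondingly wide error (adjusted p = 0.0183). Ddx31, the counterpart of yeast Dbp7, read 7.78, 7.46, 5.45 and 7.93 in controls and 9.06, 9.21, 8.96 and 8.63 in treated rats. The same control replicate 3 was the lowest for Ddx31 and was under background there, with a log2 difference of 1.81 ± 0.48 (adjusted p = 0.0327).

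Dhx33, which is known to take part in ribosomal RNA transcription and whose promoter holds an E-box as shown above, read 7.95, 7.77, 7.18 and 7.77 in controls and 8.54, 8.64, 8.51 and 8.59 in treated rats. The log2 difference was 0.91 ± 0.21, or 1.87-fold (adjusted p = 0.0165), with no overlap. Ddx51, a large-subunit factor, had probe sets that disagreed in their call. The brighter set read 7.90, 7.21, 5.99 and 7.16 in controls and 8.21, 8.14, 8.10 and 7.31 in treated rats, and its difference of 0.87 ± 0.38 did not pass (adjusted p = 0.158; 0.52 without control replicate 3). The other set read 7.47, 6.05, 5.42 and 7.01 in controls and 8.54, 8.64, 8.49 and 7.96 in treated rats. It did pass, at 1.92 ± 0.41 (adjusted p = 0.0118), and both sets were above background in only 2 of 4 controls.

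The remaining nucleolar members did not pass. Ddx56, Ddx52, Ddx47 and Ddx54 had log2 differences of 0.63, 0.56, 0.54 and 0.40, with adjusted p of 0.0626, 0.0557, 0.167 and 0.188 in limma. Ddx50, the close paralog of Ddx21, differed by 0.01 ± 0.17 (adjusted p = 0.971) in its brighter probe set and by 0.60 ± 0.26 (adjusted p = 0.151) in the other. So of the paralog pair, the call was made for Ddx21 alone, and the difference between the paralogs was not tested.

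With 1 array left out, Ddx10, Ddx21, Ddx24 and Ddx27 stayed called in all 8 such fits. Ddx18 did not pass without thioacetamide replicate 2 (adjusted p = 0.0619), and Dhx33 did not pass without thioacetamide replicate 2 (adjusted p = 0.057). Dhx37 did not pass without control replicate 2 (adjusted p = 0.0506) or thioacetamide replicate 1 (adjusted p = 0.0537) or 2 (adjusted p = 0.0543). Ddx31 did not pass without control replicate 2 (adjusted p = 0.0561) or thioacetamide replicate 1 (adjusted p = 0.0861), 2 (adjusted p = 0.0988) or 3 (adjusted p = 0.0783). The number of nucleolar genes called higher was 4 without thioacetamide replicate 2 and between 6 and 9 without each other array.

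**Figure D2:**
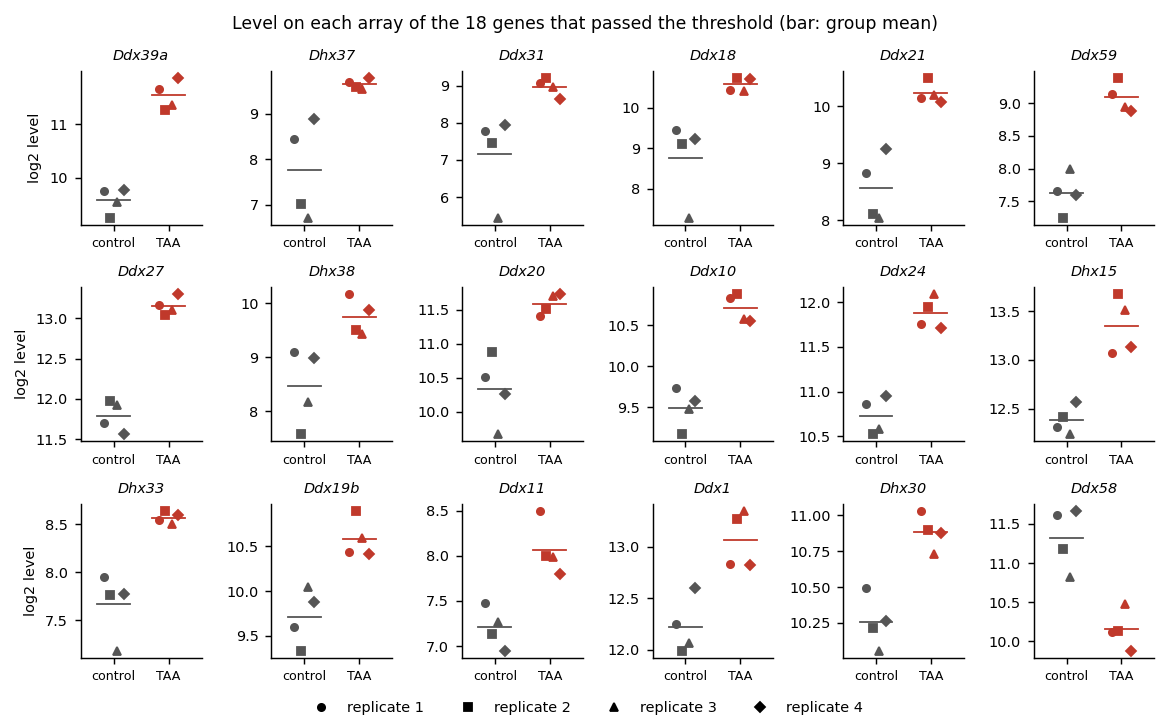
Log2 level on each array (vertical axis, a scale of its own in each panel) of the 18 genes that passed the threshold, for 4 control rats (grey) and 4 rats given thioacetamide (TAA, red). Symbols mark the replicate and horizontal bars the group means. In every panel the groups do not overlap, and Ddx58 is the 1 gene with the treated rats below the controls.

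Other nucleolar assembly factors that are not helicases were also higher. Of 19 listed genes, 17 were called higher (89.5%, beside 9.67% of all genes) and 0 lower (0 also at an unadjusted p under 0.05, limma). Their median log2 difference was 1.12, and 18 of the 19 were above background on all arrays, beside 9531 of 24154 genes. Gar1 and Nop58, core proteins of the small nucleolar ribonucleoproteins that guide modification of ribosomal RNA, had the largest differences (2.66 and 2.38), followed by Nop56 (1.93). The per-array median of the nucleolar helicases, each gene taken relative to its control mean, was 0.26, −0.06, −0.31 and 0.20 in control replicates 1 to 4 and 1.08, 1.14, 1.06 and 0.95 in the treated rats. For the other nucleolar factors it was −0.11 to 0.10 in controls and 1.02 to 1.38 in treated rats, so both groups of genes were higher in all 4 treated livers.

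Markers of proliferating cells were also higher in treated rats. All 5 were called higher (100%, beside 9.67% of all genes), although only 2 of the 5 were above background on all arrays. The log2 differences of the 5 markers ran from 1.21 for Top2a to 2.08 for Ccnb1. Their per-array median was −0.52 to 0.67 in controls and 1.27 to 1.62 in treated rats. Their part in the helicase result was not tested.

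**Figure D3:**
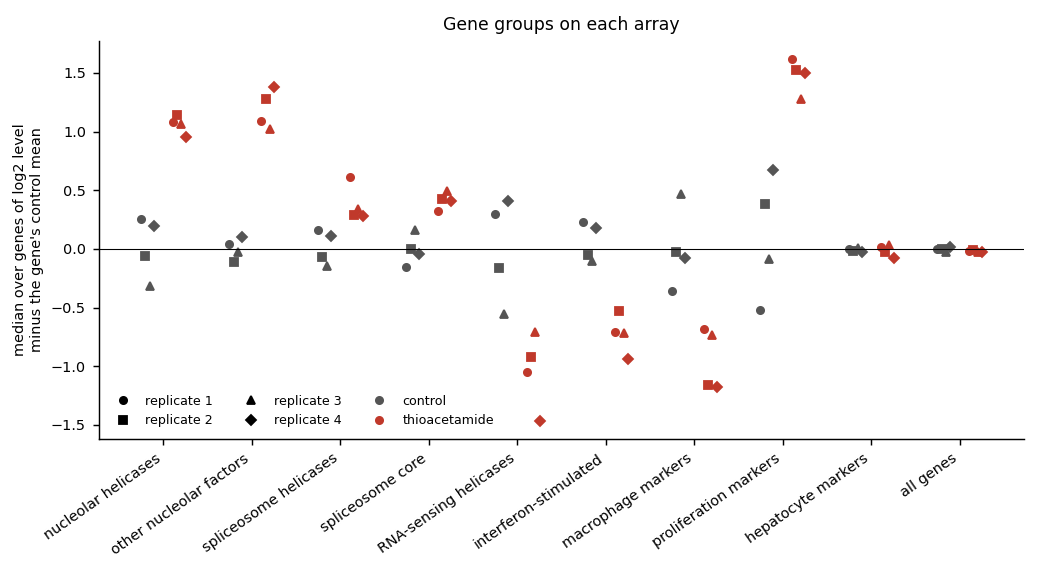
Median over the genes of a group of the log2 level minus each gene's control mean (vertical axis), on each of the 4 control (grey) and 4 thioacetamide (red) arrays, with the symbol giving the replicate. The nucleolar helicases (0.95 to 1.14 in treated rats), the other nucleolar factors and the proliferation markers lie above the controls in treated rats, the RNA-sensing helicases, interferon-stimulated genes and macrophage markers lie below, and hepatocyte markers and all genes lie near 0.

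In the group for genome maintenance and transcription, 3 of 4 members were called higher (75%, beside 9.67% of all genes), with a median log2 difference of 0.85. Ddx20, also known as Gemin3, is a subunit of the SMN complex that loads Sm proteins onto spliceosomal RNAs. It read 10.51, 10.88, 9.67 and 10.25 in controls and 11.41, 11.52, 11.71 and 11.73 in treated rats, a log2 difference of 1.26 ± 0.26, or 2.4-fold (limma adjusted p = 0.0102). The groups were separate, with control replicate 2 nearest to the treated rats. Of 5 measured partners in the SMN complex, Smn1 (1.30) and Gemin2 (0.91) were called higher (40%, beside 9.67% of all genes). Of the 5, 0 were called lower (0 also at an unadjusted p under 0.05), and Gemin4, Gemin6 and Gemin8 did not pass.

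Ddx1, which acts in tRNA ligation and at DNA breaks, read 12.25, 11.99, 12.07 and 12.60 in controls and 12.84, 13.27, 13.35 and 12.82 in treated rats. Its log2 difference was 0.84 ± 0.22 (adjusted p = 0.0297). The gap between the highest control and the lowest treated rat was small for Ddx1, and the call did not hold without control replicate 1 (adjusted p = 0.0598) or 2 (adjusted p = 0.0765) or thioacetamide replicate 1 (adjusted p = 0.0503), 2 (adjusted p = 0.097) or 3 (adjusted p = 0.0863).

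Ddx11, a DNA helicase needed for cohesion of sister chromatids, read 7.48, 7.13, 7.27 and 6.95 in controls and 8.50, 7.99, 7.99 and 7.79 in treated rats. The controls were above background on 1 of 4 arrays only, and the log2 difference was 0.86 ± 0.22 (adjusted p = 0.0251). Its other probe set read 7.23, 6.42, 6.28 and 6.99 in controls and 6.90, 6.61, 7.27 and 7.23 in treated rats. That set did not pass, at 0.27 ± 0.27 (adjusted p = 0.535), with overlapping groups. The call of the first set did not hold without control replicate 2 (adjusted p = 0.0607) or 4 (adjusted p = 0.0548) or thioacetamide replicate 1 (adjusted p = 0.0759), 2 (adjusted p = 0.065) or 3 (adjusted p = 0.0552), after cyclic loess (adjusted p = 0.0668) or with a trended, robust variance (adjusted p = 0.0646).

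Dhx9, which unwinds RNA and RNA-DNA hybrids during transcription, did not pass. It read 10.33, 10.44, 11.04 and 11.04 in controls and 10.67, 11.29, 11.16 and 11.64 in treated rats. The groups overlapped, with a log2 difference of 0.48 ± 0.27 (adjusted p = 0.266).

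Among 5 members of mRNA export, the largest difference of the whole family was that of Ddx39a. This gene encodes an export helicase closely related to Ddx39b, both of which hand spliced mRNA to the export receptor. Ddx39a read 9.76, 9.26, 9.56 and 9.77 in controls and 11.66, 11.26, 11.36 and 11.87 in treated rats. The lowest treated rat lay well above the highest control, a log2 difference of 1.95 ± 0.21, or 3.87-fold (limma adjusted p = 0.000376). Ddx39b, by contrast, read 11.69, 11.81, 11.79 and 11.42 in controls and 12.07, 12.03, 11.55 and 11.59 in treated rats. These groups overlapped, with a difference of 0.13 ± 0.20 (adjusted p = 0.717), and the gap between the paralogs was not tested.

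Ddx19b, which frees mRNA from its export proteins on the outer side of the nuclear pore, read 9.60, 9.34, 10.05 and 9.88 in controls and 10.44, 10.90, 10.59 and 10.41 in treated rats. The log2 difference was 0.87 ± 0.22 (adjusted p = 0.0255). The call of Ddx19b did not hold without control replicate 1 (adjusted p = 0.0617) or 2 (adjusted p = 0.0649) or thioacetamide replicate 1 (adjusted p = 0.0545), 2 (adjusted p = 0.0876) or 3 (adjusted p = 0.0636). It also did not pass after cyclic loess (adjusted p = 0.1). Its near-identical paralog Ddx19a differed by 0.42 in 1 probe set and 0.10 in the other, neither passing (adjusted p = 0.286 and 0.914), and probes of the pair may share signal. Ddx25, known for its role in the testis, was at or under background in all 4 controls and above it in 2 of 4 treated rats, so no fold is given.

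Of the spliceosome helicases, 2 of 11 were called higher and 0 lower (0 lower also at an unadjusted p under 0.05), a share of 18.2% beside the 9.67% of all genes. Of these 11, 10 were above the background level on all arrays, beside 9531 of 24154 genes, so the share is not read as raised. Dhx38, the counterpart of yeast Prp16, which remodels the spliceosome before the second splicing step, read 9.11, 7.58, 8.17 and 8.99 in controls and 10.17, 9.50, 9.44 and 9.88 in treated rats. Its controls were spread widely, replicate 2 lowest, with a log2 difference of 1.29 ± 0.35 (limma adjusted p = 0.0348). Dhx38 did not pass without control replicate 2 (adjusted p = 0.0685) or 3 (adjusted p = 0.0599) or thioacetamide replicate 1 (adjusted p = 0.105), 2 (adjusted p = 0.072), 3 (adjusted p = 0.0578) or 4 (adjusted p = 0.0713). It also did not pass after cyclic loess (adjusted p = 0.0627). Dhx15, the counterpart of yeast Prp43, takes spent spliceosomes apart and also acts on ribosome precursors. It read 12.31, 12.41, 12.24 and 12.56 in controls and 13.07, 13.67, 13.51 and 13.14 in treated rats, a difference of 0.97 ± 0.20 (adjusted p = 0.011) that passed in all 8 fits with 1 array left out. Dhx15 did not pass with the replicate number as a block (adjusted p = 0.0503).

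The others in this group did not pass. Ddx5, a helicase that also serves as a transcriptional co-regulator, read 13.20, 13.32, 13.12 and 12.85 in controls and 13.43, 13.90, 13.44 and 13.40 in treated rats. The groups did not overlap, thioacetamide replicate 2 was the highest, and the difference was 0.42 ± 0.20 (adjusted p = 0.194). Its paralog Ddx17 had probe sets of opposite sign.

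The brighter set of Ddx17 read 11.77, 11.91, 11.79 and 11.06 in controls and 11.44, 11.49, 11.71 and 10.87 in treated rats, a difference of −0.25 ± 0.26 (adjusted p = 0.56). The other set of Ddx17 read 10.86, 11.38, 11.07 and 10.34 and 10.67, 11.04, 11.46 and 10.83, a difference of 0.09 ± 0.27 (adjusted p = 0.863). Each difference was smaller than its own standard error. Ddx23, Ddx41, Ddx42, Ddx46, Dhx8, Dhx16 and Dhx35, which act at successive steps of splicing or bind spliceosomes, had log2 differences between −0.05 and 0.90. Of 12 listed core spliceosome proteins without a helicase domain of this family, 4 were called higher (33.3%, beside 9.67% of all genes). They were Snrpd1 (0.80), Prpf4 (0.78), Sf3a1 (0.72) and Prpf3 (0.66). The median of the 12 was 0.35, and 0 were called lower (0 also at an unadjusted p under 0.05). Above background on all arrays were 11 of the 12, beside 9531 of 24154 genes.

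The pair of mitochondrial members differed in call. Dhx30, found in mitochondrial RNA granules where mitochondrial ribosomes are assembled, read 10.49, 10.22, 10.06 and 10.26 in controls and 11.03, 10.90, 10.73 and 10.88 in treated rats. With a log2 difference of 0.63 ± 0.18 (limma adjusted p = 0.0437), it was the called gene nearest to the threshold. It did not pass without control replicate 2 (adjusted p = 0.0898), 3 (adjusted p = 0.0755) or 4 (adjusted p = 0.0704) or thioacetamide replicate 1 (adjusted p = 0.125), 2 (adjusted p = 0.114), 3 (adjusted p = 0.0691) or 4 (adjusted p = 0.0714). It also did not pass after median centring (adjusted p = 0.076), cyclic loess (0.112) or quantile normalization (0.0549).

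Ddx28, a mitochondrial helicase of large-subunit assembly, read 10.57, 10.20, 7.71 and 10.22 in controls and 10.22, 10.40, 10.55 and 10.77 in treated rats. Control replicate 3 alone lay far below all other arrays for this gene. The difference was 0.81 ± 0.54 (adjusted p = 0.359), and without control replicate 3 it was 0.15.

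Of 5 less characterised members, Ddx59 alone was called higher (20%, beside 9.67% of all genes) and 0 were called lower. Its cellular task is poorly known. It read 7.65, 7.25, 7.99 and 7.59 in controls and 9.14, 9.39, 8.93 and 8.88 in treated rats, a log2 difference of 1.47 ± 0.22, or 2.76-fold (limma adjusted p = 0.00188), with no overlap and a call in all 8 fits with 1 array left out. Dhx40 differed by 0.66 ± 0.21 and Dhx57 by 0.29 ± 0.18, and neither passed (adjusted p = 0.0678 and 0.309). Ddx3, an entry that the gene table also calls Ddx3yl, differed by −0.05 ± 0.23 (adjusted p = 0.906). Ddx26 is the array's older symbol for Ints6, a subunit of the Integrator complex that trims nuclear RNA and not a helicase, and it differed by 0.35 ± 0.21 (adjusted p = 0.308).

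In the group for translation, mRNA decay and storage, 0 of 4 members were called, with 1 higher and 0 lower at an unadjusted p under 0.05 (limma). Ddx3x, which helps ribosomes scan structured leaders, read 11.97, 12.01, 12.10 and 11.96 in controls and 12.54, 12.38, 12.50 and 12.51 in treated rats. The difference of 0.47 ± 0.16 did not pass (adjusted p = 0.0856), although treated rats lay above the controls. Ddx6, the decapping activator of processing bodies, read 12.20, 12.52, 12.59 and 12.48 in controls and 12.16, 12.46, 12.65 and 12.38 in treated rats. The groups overlapped almost fully, with a difference of −0.03 ± 0.19 (adjusted p = 0.928).

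Decapping partners of Ddx6 numbered 11, with a median log2 difference of 0.52. Of these, 2 were called higher (18.2%, beside 9.67% of all genes) and 0 lower (0 also at an unadjusted p under 0.05). They were the exonuclease Xrn1 (1.39), above background in 1 of 4 controls, and the decapping scaffold Patl1 (0.87). Of the 11 partners, 8 were above background on all arrays, beside 9531 of 24154 genes, so the share is not read as raised. Dhx36, which unwinds G-quadruplexes, differed by 0.87 ± 0.53 (adjusted p = 0.31) with control replicate 3 far below the other controls and under background, and by 0.26 without that array (adjusted p = 0.573). Dhx34, which acts in nonsense-mediated decay, had probe sets of opposite sign. The brighter set read 8.24, 7.45, 6.80 and 7.98 in controls and 7.89, 7.66, 7.37 and 7.35 in treated rats (−0.05 ± 0.31, adjusted p = 0.94). The other read 6.80, 6.15, 6.80 and 6.52 and 7.07, 6.42, 7.05 and 6.32 (0.14 ± 0.25, adjusted p = 0.747), and neither set gave a direction.

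The 1 member called lower was an RNA sensor. Ddx58 is the cytoplasmic sensor RIG-I, which binds viral RNA ends and triggers interferon, and is listed as Rig1 in the gene table. It read 11.62, 11.18, 10.82 and 11.67 in controls and 10.12, 10.13, 10.48 and 9.88 in treated rats, and all treated rats lay below all controls. The level was 2.24-fold lower in treated liver (log2 difference −1.17 ± 0.24, limma adjusted p = 0.0105), and the call held in all 8 fits with 1 array left out. It did not hold with the replicate number as a block (adjusted p = 0.0572). A dimmer probe set of Ddx58 was under background on all 8 arrays, with 5.30, 5.73, 5.94 and 6.47 in controls and 5.89, 5.27, 5.54 and 5.24 in treated rats, and bears no fold.

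Dhx58, known as LGP2, is a regulator of RIG-I signalling without signalling domains of its own. It read 10.37, 9.89, 9.47 and 10.54 in controls and 9.18, 9.42, 9.49 and 8.58 in treated rats. The groups overlapped through control replicate 3, and the difference of −0.90 ± 0.29 did not pass (adjusted p = 0.0677). With all arrays kept it did pass after cyclic loess (adjusted p = 0.0137) or quantile normalization (0.0397), with the filter on dim probe sets (0.044) and with array weights (0.0145). It also passed without control replicate 3, at −1.10 (adjusted p = 0.0226).

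Most other genes of this pathway lay on the same side. Of 17 genes for RNA sensing and interferon response, 7 were called lower and 0 higher (1 higher and 8 lower at an unadjusted p under 0.05), and the median log2 difference was −0.53. The share called lower was 41.2%, beside 5.24% of all genes, and 15 differences were below 0 and 2 above. Trim25 went the other way (0.56, limma adjusted p = 0.0942), with all treated rats above all controls. Among the called falls were Oas1a (−1.87) and Irf7 (−1.72). Ifih1, the sensor MDA5 a close relative of Ddx58 under another name, differed by 0.02, and the signalling adaptor Mavs by −0.32, with no call for either. Some macrophage markers were also lower, with 4 of 7 called (Cd14, Marco, Csf1r and Clec4f, from −2.16 to −0.85), or 57.1% beside 5.24% of all genes. Adgre1 (−0.80), Cd68 (−0.16) and Cd163 (−0.06) did not pass. All 7 macrophage markers were above background on every array. Their per-array median was −0.36 to 0.46 in controls and −1.17 to −0.68 in treated rats. Of 8 T and NK cell markers, 3 were called lower (Gzma, Prf1 and Nkg7) and 0 higher. That is 37.5%, beside 5.24% of all genes, with 1 higher and 3 lower at an unadjusted p under 0.05 (limma). The others did not pass, with Cd3e at −0.33, Cd4 at −0.13, Cd3d at −0.04, Cd8a at 0.18 and Cd3g at 0.70. The part of these cells in the fall of Ddx58 was not tested.

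The germ line members were not above background on any array. Ddx4, the germ cell helicase Vasa, read 5.96, 5.13, 5.75 and 5.19 in controls and 6.21, 5.47, 5.70 and 5.17 in treated rats, and Ddx43 read 5.46, 5.54, 5.30 and 5.61 and 5.64, 5.42, 5.41 and 5.43. Values at this height have no order, and 0 of 4 germ cell markers were called (0 also at an unadjusted p under 0.05).

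The pseudogene probe sets of Ddx21 lay opposite to Ddx21 itself, although neither passed. Ddx21-ps9 read 8.06, 8.15, 9.21 and 7.08 in controls and 6.39, 6.40, 6.02 and 8.41 in treated rats. The treated rats were under background except replicate 4, which overlapped the controls, with a difference of −1.32 ± 0.56 (adjusted p = 0.149). Without thioacetamide replicate 4 it did pass, at −1.86 (adjusted p = 0.0248), a gene whose values are named here because of that change. Every treated value left in that fit was under background, so the size is only a bound. Ddx21-ps11 differed by −0.60 ± 0.32 (adjusted p = 0.244) and was above background on 1 array of each group.

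The counts depended on single arrays. The number of genes called higher was 17 with all arrays, 10 without control replicate 2, 10 without thioacetamide replicate 1, 8 without thioacetamide replicate 2 and 11 without thioacetamide replicate 3, against 15 or 16 without each of the other arrays. Without control replicates 2 and 3 and thioacetamide replicate 4 together, it was 13 higher and 3 lower. In that fit the log2 differences of Dhx37, Ddx18 and Dhx38 were 0.94, 1.19 and 0.65, and Dhx38, Dhx33, Ddx1 and Dhx30 did not pass (adjusted p = 0.145, 0.0542, 0.084 and 0.157). The number called lower was 2 without control replicate 3, when Dhx58 joined Ddx58, and 2 without thioacetamide replicate 4, when Ddx21-ps9 joined it. Of the 18 called genes, Ddx10, Ddx20, Ddx21, Ddx24, Ddx27, Ddx39a, Ddx58, Ddx59 and Dhx15 passed in every fit with 1 array left out. Control replicate 3 was the lowest control in 22 of the 51 helicase genes (43.1%, against 33.8% of all genes), and thioacetamide replicate 4 was the lowest treated rat in 21 (41.2%, against 32.5%). The median SD over helicase genes was 0.33 among controls and 0.22 among treated rats, against 0.40 and 0.29 over all genes.

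Scaling also moved the balance of directions. Over all called probe sets, 64.8% were higher with the deposited scaling and 53.5% after cyclic loess. The helicase genes counted 13 higher and 2 lower after cyclic loess, with a median log2 difference of 0.41. Relative to the median of all probe sets, which was −0.03 in both scalings, the median of the helicases still lay above.

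**Figure D4:**
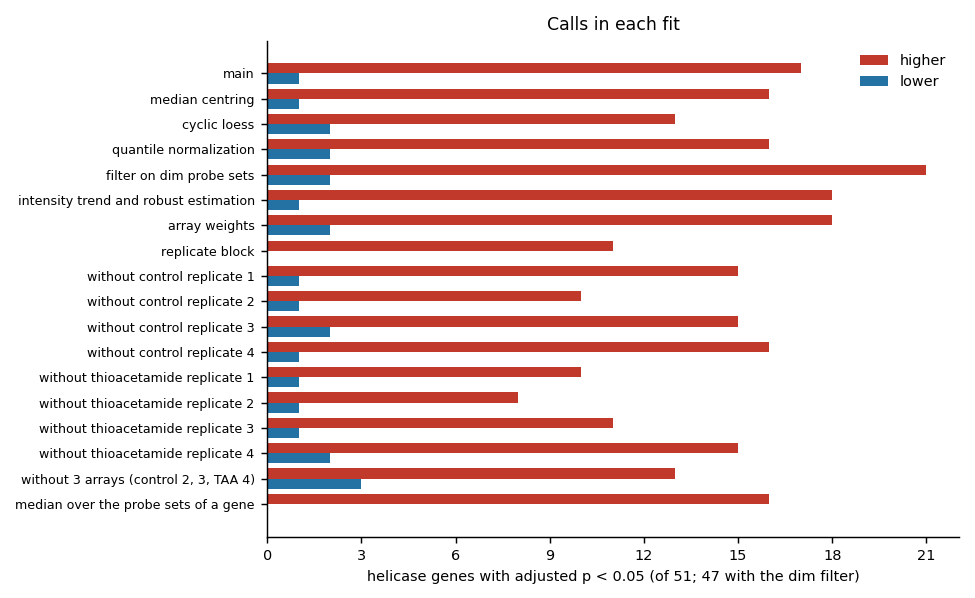
Number of helicase genes with an adjusted p under 0.05 (horizontal axis) that were higher (red) or lower (blue) in treated liver, in the fit as reported (main) and in each alternative (vertical axis). The higher count runs from 8 without thioacetamide replicate 2 to 21 with the filter on dim probe sets, where 47 genes were tested, and the lower count from 0 to 3.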

How the data were processed

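Total liver RNA of 8 rats was labelled with Cy3 and hybridised to NimbleGen arrays. The deposited values are log2 levels, 1 for each probe set on each array, made with RMA (background correction, normalization and summary of probes), per the submitters' processing notes. Its settings, the slides and the array's genome build: not given in the sources used here. Both the series table and the sample files held identical values (largest difference 0). Of 60 helicase probe sets, 38 were summarised from 3 probes and 22 from 2. Arrays give no read depth, and their number limits the precision.

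From these log2 values thioacetamide was compared with control with limma 3.58.1 in R 4.3.3 (lmFit and eBayes, no trend, not robust, two-sided, no block, Benjamini-Hochberg over all 26208 probe sets), checked on simulated data. In control replicate 4, 11 probe sets without a value, none a helicase, were fitted on the other arrays. Symbols came from a RefSeq table of GRCr8 by gene identifier (20543 probe sets), otherwise from the files (5665). A gene was represented by its brightest probe set over 8 arrays. Members and all gene lists were chosen with earlier results of these data known. Values on every array are given for called genes, the best known member of each role, and genes whose probe sets disagree. From each list of related genes the 3 called genes with the largest difference are named, except some that are not reported here. Other genes are named after their values were seen. The alternatives were other scalings, a filter on dim probe sets, another variance model, array weights, a block for replicate number, fits with arrays left out, another gene summary and a stricter threshold.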

Additional observations from a re-analysis of the deposited data

Results flagged for a closer look

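A single rat stood apart from the other 3 of its group in 10 of 102 groups of 4 examined (51 genes in each treatment). The gap to its nearest neighbour exceeded the share of the group's range that is Dixon's critical value for 4 samples, which chance exceeds in about 1 in 20 groups. Control replicate 3 was the array in 4 of them, with Ddx18 at 7.29, Ddx28 at 7.71 and Dhx57 at 8.22 below the other controls and Ddx26 at 9.65 above them. Thioacetamide replicate 4 was the array in 3, with Ddx51 at 7.31 below the other treated rats and Ddx21-ps9 at 8.42 and Ddx56 at 12.2 above them. Single values were Ddx17 at 11.06 in control replicate 4, below the other controls, Ddx5 at 13.9 in thioacetamide replicate 2, above the other treated rats, and Ddx43 at 5.64 in thioacetamide replicate 1, above the others but under background. The other 3 controls of Ddx28 lay between 10.2 and 10.57, and the other treated rats of Ddx21-ps9 between 6.02 and 6.40.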

How the results depend on the processing

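Over 16 refits, the 18 called genes kept their direction in all 288 values and their call in 233, and the other named genes reversed in 6 values. Ddx6 (−0.034 as reported) turned to 0.013 with array weights and to 0.084 without 3 arrays together (control replicates 2 and 3, thioacetamide replicate 4), and ran from −0.116 to 0.051 with single arrays left out, above 0 without control replicate 3 (0.014) and in the fit lacking thioacetamide replicate 1. Ddx28 turned to −0.0074 without those 3 arrays and ran from 0.151 to 1.104 with single arrays left out. Ddx4 ran from −0.063, without thioacetamide replicate 1, to 0.282. Leaving out 1 array at a time gave 8 to 16 helicase genes higher and 1 to 2 lower, 10 to 18 probe sets higher and 1 to 2 lower, a median of 0.48 to 0.64, 4 to 9 nucleolar genes higher with a median of 0.92 to 1.17, and 1447 to 2436 higher and 719 to 1488 lower among all probe sets. With 1 array less, the fit also has fewer samples. The helicase genes and probe sets called lower numbered 2 with cyclic loess, 2 with quantile normalization, 2 with the dim filter, 2 with array weights and 3 without those 3 arrays, and the genes called lower numbered 0 with the median over a gene's probe sets. Medians moved to 0.41 (nucleolar 0.85) with cyclic loess and to 0.38 (nucleolar 0.82) without those 3 arrays, and array weights called 2082 of all probe sets lower (1857 without those 3 arrays). An adjusted p under 0.01 left 7 helicase probe sets higher and 0 lower (29 higher and 3 lower at an unadjusted p under 0.05 in limma). The cause of the other moves was not tested. With the replicate number as a block (replicate block), 11 helicase genes were higher and 0 helicase genes and probe sets lower, with 1475 higher and 688 lower among all probe sets. Calls lost with the block were Ddx1 (limma adjusted p = 0.106), Ddx19b (0.0907), Ddx31 (0.0585) and Ddx58 (0.0572). Dhx15 (0.0503), Dhx30 (0.105) and Dhx33 (0.0547) lost theirs too. Deviations of same-numbered rats from their group means correlated at 0.25, −0.10, −0.13 and −0.43 for numbers 1 to 4. These correlations cannot show whether the numbers pair rats, because single arrays stood apart in each group, and the labels do not state it. Signal near background limits the 17 genes not above it on all arrays.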

Other observations

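Among 20 RNA helicases with other names, 3 were called higher and 0 lower (5 higher and 1 lower at an unadjusted p under 0.05 in limma), a share of 15% beside 9.67% of all genes, with a median log2 difference of 0.21. Of these 20, 14 were above background on all arrays, beside 9531 of 24154 genes, so this share is not read as raised either. Among those called were Dqx1 (2.20), a DEAQ box relative, and Eif4a1 (1.11), the DEAD box subunit of the cap-binding complex that starts translation. Dqx1 was above background in only 2 of 4 controls. Eif4a2, its paralog, differed by 0.03 and Eif4a3, the exon junction helicase, by 0.37, and neither passed. The RNA decay helicases Mtrex (0.55), Skic2 (−0.28) and Upf1 (0.80) also did not pass.

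The array held 6 more probe sets that its annotation describes as similar to a DEAD or DEAH box protein under a symbol outside the family, and that the choice by symbol left out. LOC686264, described as similar to box polypeptide 27, was called higher with a log2 difference of 2.33 ± 0.30 (SE, limma adjusted p = 0.000802). LOC688346, described likewise, had 1.04 ± 0.39 (adjusted p = 0.109). LOC686264 was above background in only 2 of 4 controls and LOC688346 in 3 of 4. LOC688040, described as similar to polypeptide 21a, had −1.24 ± 0.71 (adjusted p = 0.281) and was under background in all 4 treated rats. RGD1559513, described as similar to polypeptide 41, had 0.71 ± 0.26 (adjusted p = 0.0969). LOC689254 and LOC689304 were under background on all arrays.

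Without the 2 pseudogenes and Ddx26, 48 genes remained, of which 17 were called higher (35.4%) and 1 lower (2.08%), with a median of 0.60. Without the nucleolar group as well, 34 genes remained, with 9 higher (26.5%), 1 lower (2.94%) and a median of 0.47. Over all genes, 9.67% were called higher and 5.24% lower. Of the 34 genes, 24 were above background on all arrays, beside 9531 of 24154 genes, so their share is not read as raised.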
